A study of Mus musculus with 18 samples.

Results

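Epithelial-mesenchymal transition (EMT) is the change by which cells that adhere to each other in sheets take on a motile, spindle-shaped state. Transcription factors of the Snail, Zeb and Twist families drive it by repressing epithelial adhesion genes such as Cdh1 and Epcam, and mesenchymal cells carry the intermediate filament protein vimentin, often N-cadherin (Cdh2) and the calcium-binding protein S100a4. In breast cancer the state is studied for its link to invasion and metastasis, and many tumor cells hold a mixture of both programs. Described here are 10 of the 50686 genes in the count files, picked by name as the core regulators and markers of these states: Snai1, Snai2, Zeb1, Zeb2, Twist1, Vim, Cdh2, S100a4, Cdh1 and Epcam. Of these, 8 passed the filter on low counts and were tested among 12772 genes, whereas Cdh2 and Epcam were too scarce.

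RNA was sequenced from E0771, a murine triple-negative breast cancer cell line. All cells carried a lentiviral Luciferase construct selected with puromycin, and on top of it a retroviral LENC vector with mCherry and a hairpin, by which they were sorted. The hairpin was directed against Renilla luciferase in cntrl cells, and 1 of 2 hairpins against Cdk8 in shCdk8-1 and shCdk8-2 cells. Each line was kept in DMSO or in 1 µM Senexin B (SnxB), an inhibitor of the kinases CDK8 and CDK19, for 48 h, with 3 libraries per group and 18 in all. Each hairpin is represented by 1 transduced and sorted population, and cntrl is likewise 1 population used in every comparison with a hairpin line, so that hairpin and line cannot be told apart. Nothing in the labels says that the 3 libraries of a group came from separate cultures, and p-values then measure the spread between libraries, which may be technical.

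The libraries held between 16452260 and 22664693 counted reads, and the lowest correlation between libraries of a group was 0.994 over the genes tested. Cdk8, the target of the hairpins, was at 56.1 ± 2.13 CPM (reads scaled to a common library total after TMM; SD, n = 3) in cntrl cells, 21.4 ± 2.44 CPM in shCdk8-1 cells and 38.9 ± 0.376 CPM in shCdk8-2 cells in DMSO. Its log2 fold change against cntrl was -1.38 (SE 0.0748, edgeR's quasi-likelihood test, adjusted p = 2.58e-12) with shCdk8-1 and -0.53 (SE 0.0699, adjusted p = 1.92e-06) with shCdk8-2, so the knockdown at the RNA level was partial and weaker with the second hairpin. Its paralog Cdk19 rose by 0.42 and 0.13 on the log2 scale. The markers of mammary epithelium (Krt8, Krt18, Krt5, Krt14, Trp63, Epcam and Cdh1) summed to 0.163 to 0.392 CPM in cntrl cells in DMSO, so that the defining keratins of the labelled tissue of origin were nearly absent there. The same sum was 8.27 to 9.06 CPM in shCdk8-1 cells and 12.9 to 14.5 CPM in shCdk8-2 cells, most of it Krt8. Leukocyte markers summed to 0.163 to 0.601 CPM in cntrl libraries and at most 0.0595 CPM in the hairpin lines, adipocyte markers stayed at or below 0.108 CPM in every library, and the fibroblast list lay between 240 and 390 CPM, most of it Pdgfra. The genes of the fibroblast list did not move together. In DMSO, Pdgfra was at 286 CPM in cntrl, 229 CPM in shCdk8-1 and 256 CPM in shCdk8-2 cells. The collagen gene Col1a1 was at 0.78, 16.6 and 9.91 CPM in the same order. The endothelial list (Pecam1, Cdh5 and Kdr) lay between 2.72 and 17.9 CPM and differed between the lines. The part of these markers in the results below was not tested. In bulk RNA, fewer cells of a kind and less RNA per cell cannot be told apart.

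Per length of exon, the markers of the mesenchymal state stood at the top and the epithelial genes at the bottom. In cntrl cells in DMSO the mean level was 934 CPM per kb for Vim, 385 for S100a4, 30.5 for Twist1, 18.9 for Zeb1, 10.4 for Zeb2, 7.76 for Snai1, 0.835 for Snai2, 0.0308 for Cdh1, 0.0160 for Epcam and 0.00479 for Cdh2. From Vim down to Cdh1 no library of a gene overlapped those of its neighbour in this order, while Cdh1, Epcam and Cdh2 overlapped and had no order beyond their spread. E0771 cells thus had abundant Vim, S100a4, Twist1 and Zeb RNA with hardly any Cdh1, but also hardly any Cdh2. In shCdk8-1 cells the order differed at 2 places, the first of them also in shCdk8-2 cells. Snai1, at 10.1 ± 0.765 CPM per kb (SD, n = 3), stood above Zeb2, at 8.33 ± 0.419 CPM per kb, without overlap, and Snai2, at 0.0435 CPM per kb, stood below Cdh1 and Epcam, both at 0.144 CPM per kb. In shCdk8-2 cells Snai1, at 9.31 CPM per kb, likewise stood above Zeb2, at 7.24 CPM per kb, without overlap.

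**Figure D1:**
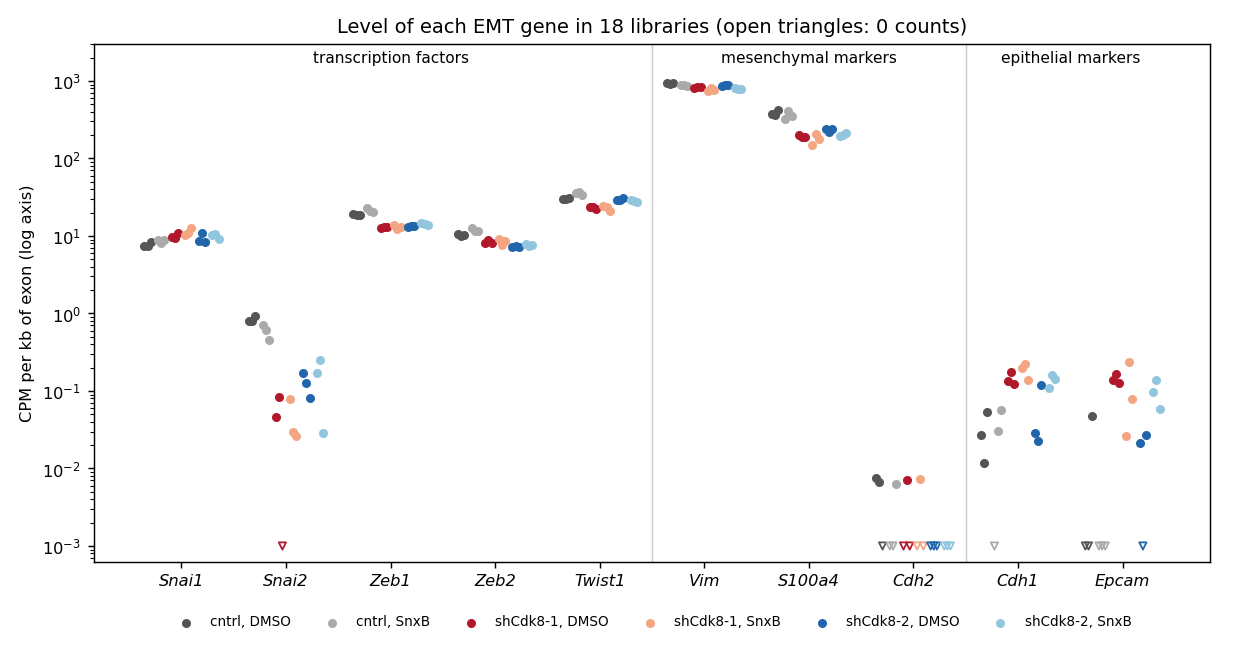
Level of each of the 10 genes in the 18 libraries, in CPM per kb of exon on a log axis, with 1 point per library, colors for the 6 groups and open triangles at the bottom for libraries with 0 counts. Vim and S100a4 lie highest in all groups, Snai2 is lower in all hairpin libraries than in all cntrl libraries, and Cdh1, Epcam and Cdh2 lie at the level of a few reads.

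In DMSO, Snai2, Zeb1, Zeb2 and S100a4 fell in both Cdk8 knockdown lines, and Snai1 rose in both. The Snai1 libraries of shCdk8-2 overlapped those of cntrl, and that call rested on single libraries. Twist1 and Vim fell and Cdh1 rose in shCdk8-1 cells, while these 3 genes did not pass in shCdk8-2 cells. All 8 genes tested passed the test in shCdk8-1 cells, 2 higher (Snai1 and Cdh1) and 6 lower. Over all genes tested, 30.1% were higher and 29.5% were lower in that comparison. In shCdk8-2 cells 5 of 8 passed, 1 higher (Snai1) and 4 lower (Snai2, Zeb1, Zeb2 and S100a4), against 29.0% higher and 28.1% lower among all genes. The median log2 fold change of the 8 genes was -0.36 and -0.30, and that of all genes 0.01 in both comparisons. Snai2 and Cdh1 passed the filter on low counts through the groups in which they were high, which made a difference likely, so these counts and medians describe the 8 genes and are no support for a shift of the set. Each gene is given below with its values in all libraries.

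**Figure D2:**
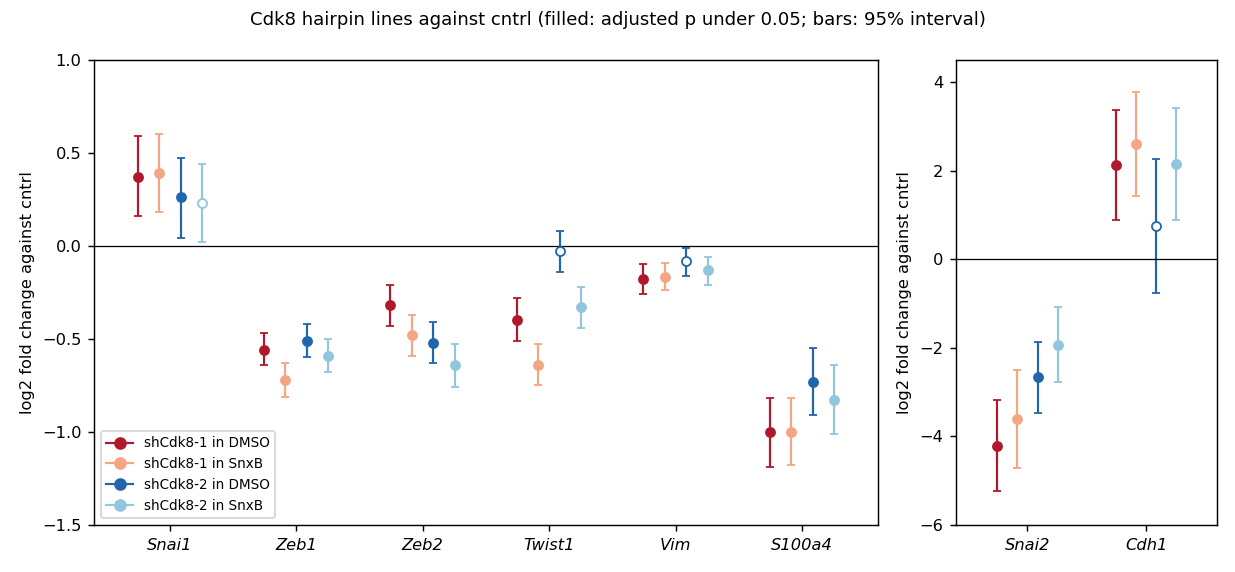
Log2 fold change of each tested gene in shCdk8-1 and shCdk8-2 cells against cntrl cells, in DMSO and in SnxB, with 95% intervals and filled points where the adjusted p was under 0.05. The right panel, with its own axis, holds the scarcer Snai2 and Cdh1. Snai1 lies above 0 in all 4 comparisons, and Zeb1, Zeb2, S100a4 and Snai2 lie below 0.

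Snai1 encodes SNAIL, the zinc-finger repressor that starts many EMT programs, and lies at chr2:167538195-167542814 on the + strand of GRCm38. In DMSO it was at 12.2, 11.98 and 13.6 CPM in cntrl cells, 15.9, 15.3 and 17.7 CPM in shCdk8-1 cells and 13.8, 17.9 and 13.5 CPM in shCdk8-2 cells. All shCdk8-1 libraries were above the cntrl libraries, whereas those of shCdk8-2 overlapped them, with replicate 2 standing highest. Snai1 rose by 0.37 on the log2 scale in shCdk8-1 cells (SE 0.104, edgeR, adjusted p = 0.00407) and by 0.26 in shCdk8-2 cells (SE 0.104, edgeR, adjusted p = 0.0418). The second call rested on single libraries. Without shCdk8-2 replicate 2 the log2 fold change was 0.11 (edgeR, adjusted p = 0.352), without cntrl replicate 1 it was 0.23 (adjusted p = 0.123) and without cntrl replicate 2 it was 0.21 (adjusted p = 0.146), and DESeq2 gave 0.25 (adjusted p = 0.0517). In SnxB the levels were 14.3, 13.2 and 14.3 CPM in cntrl cells, 16.8, 17.6 and 20.3 CPM in shCdk8-1 cells and 16.9, 17.1 and 14.9 CPM in shCdk8-2 cells, with both hairpin lines above cntrl in every library. There the difference passed with shCdk8-1 (log2 fold change 0.39, SE 0.101, edgeR, adjusted p = 0.0023) and not with shCdk8-2 (0.23, SE 0.102, edgeR, adjusted p = 0.0631). Leaving out shCdk8-2 replicate 3 in SnxB brought the latter to 0.30 (adjusted p = 0.0315). The Snai1 promoter, the 250 bases before and 50 after its start in RefSeq on GRCm38.p6, holds 1 copy of CACCTG, the E-box that SNAIL and ZEB proteins recognize. It is shown because factors of both families differed between the lines. The copy starts 126 bases before the start site, and the stretch around it, 5′ to 3′ with the E-box in capitals, is chr2:167538057-167538086 on the + strand.
Snai1: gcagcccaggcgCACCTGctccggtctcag
The motif, searched on both strands (CACCTG or CAGGTG), stands in 20.2% of the 32851 promoters of this length, so a match is a description and no evidence of binding.

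Snai2 encodes SLUG, the second Snail-family repressor, and lies at chr16:14705852-14709395 on the + strand. Its counts in DMSO were 26, 30 and 38 in cntrl cells, 2, 3 and 0 in shCdk8-1 cells and 8, 5 and 3 in shCdk8-2 cells. These counts corresponded to 1.70 ± 0.144 CPM in cntrl cells (SD, n = 3), 0.0883 ± 0.0856 CPM in shCdk8-1 cells and 0.256 ± 0.0919 CPM in shCdk8-2 cells. Every hairpin library was below every cntrl library, and the knockdown libraries held at most 8 reads of the gene. Snai2 fell by 4.21 on the log2 scale in shCdk8-1 cells (95% interval -5.23 to -3.19, edgeR, adjusted p = 2.79e-07) and by 2.67 in shCdk8-2 cells (-3.47 to -1.87, edgeR, adjusted p = 5.54e-06). In SnxB the counts were 26, 27 and 18 in cntrl cells, 3, 1 and 1 in shCdk8-1 cells and 7, 9 and 1 in shCdk8-2 cells, again without overlap between the hairpin lines and cntrl. The log2 fold change in SnxB was -3.61 (SE 0.526, edgeR, adjusted p = 5.8e-06) with shCdk8-1 and -1.93 (SE 0.403, adjusted p = 0.000379) with shCdk8-2. Between the hairpin lines in DMSO the difference of 1.54, higher in shCdk8-2, had an interval of 0.02 to 3.06 and did not pass (edgeR, adjusted p = 0.147). In shCdk8-1 cells, then, Snai1 rose and Snai2 fell with either agent, and per length of exon Snai1 was the more abundant of this pair of repressors in every group.

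Zeb1 and Zeb2 encode the large zinc-finger repressors that act together with the Snail family on the Cdh1 promoter. Zeb1 lies on the + strand of chromosome 18 from 5591860 to 5775467, and Zeb2 on the - strand of chromosome 2 from 44983632 to 45117395. Zeb1 in DMSO was at 195, 189 and 189 CPM in cntrl cells, 127, 131 and 131 CPM in shCdk8-1 cells and 132, 135 and 135 CPM in shCdk8-2 cells. The hairpin lines were close to each other and clear of cntrl. Zeb1 fell by 0.56 in shCdk8-1 cells (SE 0.0426, edgeR, adjusted p = 6.15e-10) and by 0.51 in shCdk8-2 cells (SE 0.0424, edgeR, adjusted p = 2.91e-09), and the difference of 0.05 between the hairpin lines did not pass (95% interval -0.04 to 0.14, adjusted p = 0.496). Zeb2 in DMSO was at 213, 201 and 207 CPM in cntrl cells, 161, 176 and 161 CPM in shCdk8-1 cells and 144, 148 and 142 CPM in shCdk8-2 cells, with no overlap among the 3 lines. It fell by 0.32 in shCdk8-1 cells (SE 0.0533, edgeR, adjusted p = 3.17e-05) and by 0.52 in shCdk8-2 cells (SE 0.0535, edgeR, adjusted p = 6.5e-08). The level was lower in shCdk8-2 than in shCdk8-1 cells, and the difference of -0.20 between the hairpin lines passed the test (edgeR, adjusted p = 0.0104), though not without shCdk8-1 replicate 2 (-0.16, adjusted p = 0.0578). In SnxB, Zeb1 was at 231, 214 and 207 CPM in cntrl cells, 138, 123 and 134 CPM in shCdk8-1 cells and 148, 144 and 142 CPM in shCdk8-2 cells. Zeb2 in SnxB was at 253, 228 and 230 CPM in cntrl cells, 182, 155 and 172 CPM in shCdk8-1 cells and 157, 146 and 151 CPM in shCdk8-2 cells. All 4 differences from cntrl in SnxB passed, with log2 fold changes of -0.72 and -0.59 for Zeb1 and -0.48 and -0.64 for Zeb2 in shCdk8-1 and shCdk8-2 cells. Exons of Zeb1 overlap Gm10125 over 198 bases and those of Zeb2 overlap Zeb2os and Gm27761 over 471 bases on the opposite strand, which the stranded counting separates.

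Twist1, at chr12:33957671-33959817 on the + strand, encodes the basic helix-loop-helix factor of the mesoderm that also drives EMT. In DMSO it was at 48.1, 49.1 and 50.5 CPM in cntrl cells, 38.0, 38.6 and 35.7 CPM in shCdk8-1 cells and 47.5, 47.1 and 49.9 CPM in shCdk8-2 cells. Only the shCdk8-1 libraries stood apart from the rest. Twist1 fell by 0.40 in shCdk8-1 cells (SE 0.0541, edgeR, adjusted p = 2.48e-06), while the log2 fold change in shCdk8-2 cells was -0.03 (95% interval -0.14 to 0.08, edgeR, adjusted p = 0.618), and the difference of 0.36 between the hairpin lines passed (SE 0.0538, adjusted p = 5.45e-05). In SnxB the levels were 57.6, 60.0 and 55.3 CPM in cntrl cells, 38.9, 38.7 and 33.4 CPM in shCdk8-1 cells and 47.0, 45.3 and 45.0 CPM in shCdk8-2 cells. With the inhibitor in all lines, both hairpin lines were below cntrl without overlap, by 0.64 in shCdk8-1 cells (SE 0.0536, edgeR, adjusted p = 2.36e-09) and by 0.33 in shCdk8-2 cells (SE 0.0525, edgeR, adjusted p = 1.78e-05).

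Among the mesenchymal markers, Vim encodes vimentin and lies at chr2:13573927-13582826 on the + strand. It took up between 0.359% and 0.441% of all counted reads in each library. In DMSO it was at 4438, 4358 and 4498 CPM in cntrl cells, 3812, 3988 and 3937 CPM in shCdk8-1 cells and 4130, 4264 and 4149 CPM in shCdk8-2 cells, and neither hairpin line overlapped cntrl. The shift was small. Vim fell by 0.18 in shCdk8-1 cells (SE 0.0365, edgeR, adjusted p = 0.000254), and the log2 fold change of -0.08 in shCdk8-2 cells did not pass (SE 0.0365, edgeR, adjusted p = 0.0565). The latter was close to the threshold and passed with DESeq2 (-0.09, adjusted p = 0.0219) and without shCdk8-2 replicate 2 (-0.10, edgeR, adjusted p = 0.0419). In SnxB, Vim was at 4224, 4179 and 4053 CPM in cntrl cells, 3562, 3885 and 3635 CPM in shCdk8-1 cells and 3873, 3730 and 3764 CPM in shCdk8-2 cells. It was lower than in cntrl by 0.17 with shCdk8-1 (edgeR, adjusted p = 0.000471) and by 0.13 with shCdk8-2 (edgeR, adjusted p = 0.00413), the latter not passing when libraries were scaled by their totals (-0.07, adjusted p = 0.0616).

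S100a4, at chr3:90603771-90606045 on the + strand, encodes a calcium-binding protein of motile cells also known as fibroblast-specific protein. In DMSO it was at 217, 214 and 243 CPM in cntrl cells, 116, 110 and 111 CPM in shCdk8-1 cells and 139, 129 and 139 CPM in shCdk8-2 cells. All 3 lines were apart from each other. S100a4 fell by 1.00 on the log2 scale in shCdk8-1 cells (SE 0.0876, edgeR, adjusted p = 4.55e-09) and by 0.73 in shCdk8-2 cells (SE 0.0865, edgeR, adjusted p = 4.52e-07). The difference of 0.27 between the hairpin lines passed (adjusted p = 0.0334), but not without any 1 of shCdk8-1 replicates 1, 2 and 3 or shCdk8-2 replicates 1 and 3, with adjusted p of 0.0608, 0.0899, 0.0854, 0.116 and 0.109 in that order and log2 fold changes of 0.25 to 0.29. Nor did it pass when the shCdk8-2 libraries labelled 2 and 3 were summed (0.28, edgeR, adjusted p = 0.0704). In SnxB the levels were 189, 236 and 207 CPM in cntrl cells, 88.4, 122 and 106 CPM in shCdk8-1 cells and 114, 118 and 125 CPM in shCdk8-2 cells, and S100a4 fell by 1.00 (SE 0.0881, edgeR, adjusted p = 5.09e-09) with shCdk8-1 and by 0.83 (SE 0.0874, adjusted p = 9.41e-08) with shCdk8-2. The gene shares 302 exon bases with Gm42674 on the same strand, and reads falling in both are not counted, so its level is a lower estimate in all groups.

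Cdh2, which encodes N-cadherin, the cadherin gained in the classical switch from Cdh1, was at 0 counts in 13 of the 18 libraries and at 1 count in the other 5. A count of 3, the highest that 0 reads would allow, corresponds to 0.131 to 0.185 CPM at these depths (counting error only). No difference in Cdh2 was detectable at this depth, and no fold change is given. Cdh13, the GPI-anchored T-cadherin, was at 101 CPM in cntrl cells, 64.5 CPM in shCdk8-1 cells and 66.6 CPM in shCdk8-2 cells.

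Cdh1, at chr8:106603351-106670246 on the + strand, encodes E-cadherin, the adhesion protein of epithelial junctions and the main target of the Snail and Zeb repressors. Its counts in DMSO were 2, 1 and 5 in cntrl cells, 13, 14 and 11 in shCdk8-1 cells and 3, 2 and 10 in shCdk8-2 cells. The shCdk8-1 libraries were all above cntrl, and 2 of the 3 shCdk8-2 libraries lay within the range of cntrl. Cdh1 rose by 2.12 on the log2 scale in shCdk8-1 cells (95% interval 0.88 to 3.36, edgeR, adjusted p = 0.00417), from 0.141 ± 0.0966 to 0.659 ± 0.122 CPM (SD, n = 3). In shCdk8-2 cells the value of 0.74 (-0.77 to 2.26, edgeR, adjusted p = 0.404) rested on replicate 3, without which it was -0.29 (edgeR, adjusted p = 0.793). In SnxB the counts were 0, 3 and 5 in cntrl cells, 17, 17 and 12 in shCdk8-1 cells and 10, 13 and 11 in shCdk8-2 cells. Here both hairpin lines were above cntrl in all libraries, by 2.60 on the log2 scale in shCdk8-1 cells (SE 0.563, edgeR, adjusted p = 0.000481) and by 2.15 in shCdk8-2 cells (SE 0.602, edgeR, adjusted p = 0.00453). Even so, the highest Cdh1 level in any library was 1.01 CPM, so that the rise was one from almost none to very little.

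Epcam, at chr17:87635979-87651106 on the + strand, encodes an epithelial adhesion protein widely used to mark carcinoma cells. Its counts in DMSO were 0, 0 and 2 in cntrl cells, 6, 6 and 5 in shCdk8-1 cells and 1, 0 and 1 in shCdk8-2 cells. In SnxB they were 0, 0 and 0 in cntrl cells, 1, 8 and 3 in shCdk8-1 cells and 4, 5 and 2 in shCdk8-2 cells. In all, shCdk8-1 cells held 17 reads of the gene in DMSO and 12 in SnxB, and shCdk8-2 cells 2 and 11. The gene did not pass the filter. Summed over libraries, shCdk8-1 cells held 8.05 times the cntrl level in DMSO (17 against 2 counts, exact 95% counting interval 1.91 to 71.8), and in a fit without the filter the difference passed (edgeR, adjusted p = 0.00931, 27330 genes tested). With shCdk8-2 in DMSO that fit gave a log2 fold change of -0.11, which did not pass. In SnxB, where the cntrl libraries were all at 0, Epcam in shCdk8-1 cells was at least 1.51-fold higher, with 3 counts per library taken as the limit, and for shCdk8-2 this bound was 1.31-fold. Without the filter both of these differences passed (edgeR, adjusted p = 0.00119 with shCdk8-1 and 0.00228 with shCdk8-2), on at most 8 reads per library. The Epcam promoter in RefSeq holds the E-box named above at 2 places, 1 on each strand, which are shown because Epcam and Cdh1 are described as targets of the same repressors. They start 187 and 19 bases before the start site. The stretches around them, with the E-box in capitals, are chr17:87635780-87635809 and chr17:87635948-87635977 on the + strand of GRCm38.p6.
Epcam, distal: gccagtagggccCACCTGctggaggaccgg
Epcam, proximal: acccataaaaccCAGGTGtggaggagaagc
Of the other genes searched, Twist1, Vim, S100a4 and all 4 starts of Zeb2 had no copy in these 300 bases. The motif was thus held by 2 of the 6 genes searched, against 6098 of the 27025 genes with a promoter of this length. The promoters of Snai2, Zeb1, Cdh1 and Cdh2 were not searched, so whether they hold the motif was not tested.

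**Figure D3:**
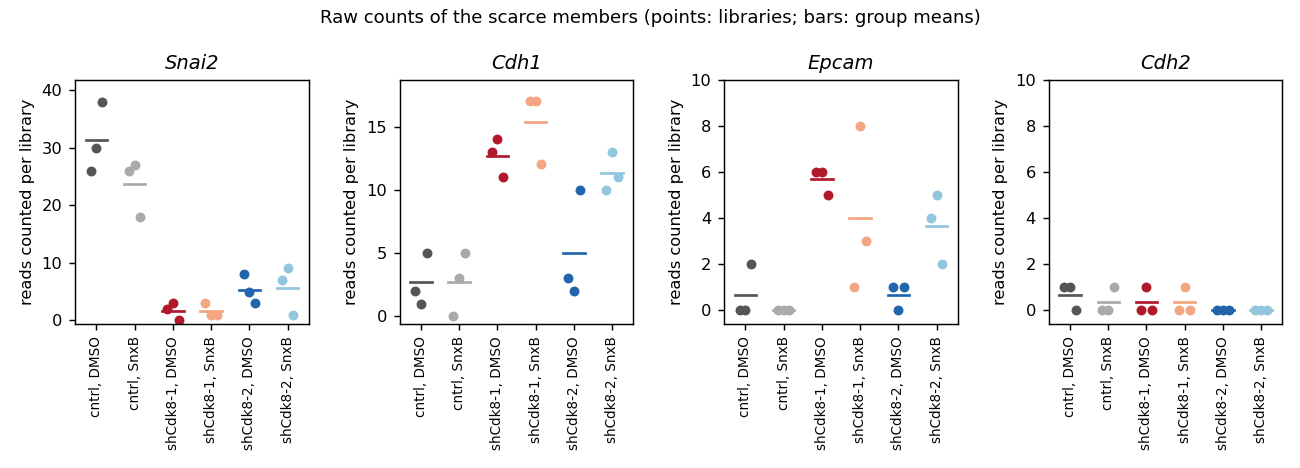
Reads counted per library for the 4 scarce genes Snai2, Cdh1, Epcam and Cdh2 in the 6 groups, with 1 point per library and a bar at the group mean, each panel on its own axis from 0. Snai2 has 18 to 38 reads in cntrl libraries and 0 to 9 in hairpin libraries, Cdh1 reaches 17 reads in shCdk8-1 cells in SnxB, and Cdh2 never exceeds 1.

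The inhibitor was compared with DMSO within each line to ask whether blocking the kinase moved the same genes. In cntrl cells 3 of the 8 genes passed, all of them higher in SnxB, against 3.41% of all genes higher and 2.14% lower. They were Zeb1, which rose by 0.19 on the log2 scale (SE 0.0418, edgeR, adjusted p = 0.00982), Zeb2, which rose by 0.19 (SE 0.0527, adjusted p = 0.0336), and Twist1, which rose by 0.23 (SE 0.0521, adjusted p = 0.0113). For all 3 the SnxB libraries lay above the DMSO libraries. These rises were small and rested on few libraries. Zeb1 did not pass without SnxB replicate 1 (0.14, edgeR, adjusted p = 0.06). Zeb2 did not pass without SnxB replicate 1 (0.15, adjusted p = 0.149) or DMSO replicate 1, 2 or 3 (0.22, 0.18 and 0.20, with adjusted p of 0.0549, 0.141 and 0.0873), and Twist1 did not without SnxB replicate 2 (0.20, adjusted p = 0.0716) or DMSO replicate 1 (0.21, adjusted p = 0.0575). The direction is the opposite of that of the hairpins for Zeb1 and Zeb2, but both comparisons use the same cntrl libraries in DMSO. Snai2 had a log2 fold change of -0.51 (95% interval -1.10 to 0.08, edgeR, adjusted p = 0.369), with all SnxB libraries below the DMSO libraries in CPM. S100a4 had -0.09 (-0.27 to 0.08, adjusted p = 0.645), Vim -0.09 (adjusted p = 0.163), Snai1 0.14 (adjusted p = 0.545) and Cdh1 -0.10 (adjusted p = 0.974). With library totals in place of TMM, Vim passed (-0.12, edgeR, adjusted p = 0.0327), and the share of higher genes among all genes that passed moved from 61.4% to 48.1%.

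In shCdk8-1 cells none of the 8 genes passed between SnxB and DMSO in edgeR or in DESeq2. At an unadjusted p under 0.05 there was 1 gene in edgeR, Vim, with a log2 fold change of -0.08 (adjusted p = 0.309). Among all genes 0.916% were higher and 0.564% lower. In shCdk8-2 cells 1 of 8 passed, Vim, which fell by 0.14 (SE 0.0365, edgeR, adjusted p = 0.0472), against 0.987% of all genes higher and 1.06% lower. Without any 1 of the 6 libraries this call was lost, with adjusted p between 0.0784 and 0.257. S100a4 had -0.19 (edgeR, adjusted p = 0.387) and passed when no filter was set (adjusted p = 0.016). Cdh1 had a log2 fold change of 1.31 in shCdk8-2 cells (0.21 to 2.40, edgeR, adjusted p = 0.28) and Epcam a ratio of 6.1 (11 against 2 counts, exact 95% counting interval 1.33 to 56.7), and neither passed an edgeR test with or without the filter.

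Whether SnxB acted differently in the knockdown lines than in cntrl was tested by the interaction. None of the 8 genes passed in edgeR or DESeq2, against 0.305% of all genes with shCdk8-1 and 0.0548% with shCdk8-2. At an unadjusted p under 0.05 there were 3 genes with shCdk8-1 (Zeb1 -0.17, Zeb2 -0.16 and Twist1 -0.24) and 1 with shCdk8-2 (Twist1 -0.30). Twist1 had the smallest p, 0.000708 with shCdk8-2 (SE 0.0744, edgeR, adjusted p = 0.266) and 0.00463 with shCdk8-1 (SE 0.0763, adjusted p = 0.284). It was higher in SnxB than in DMSO in all cntrl libraries and lower in all shCdk8-2 libraries.

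**Figure D4:**
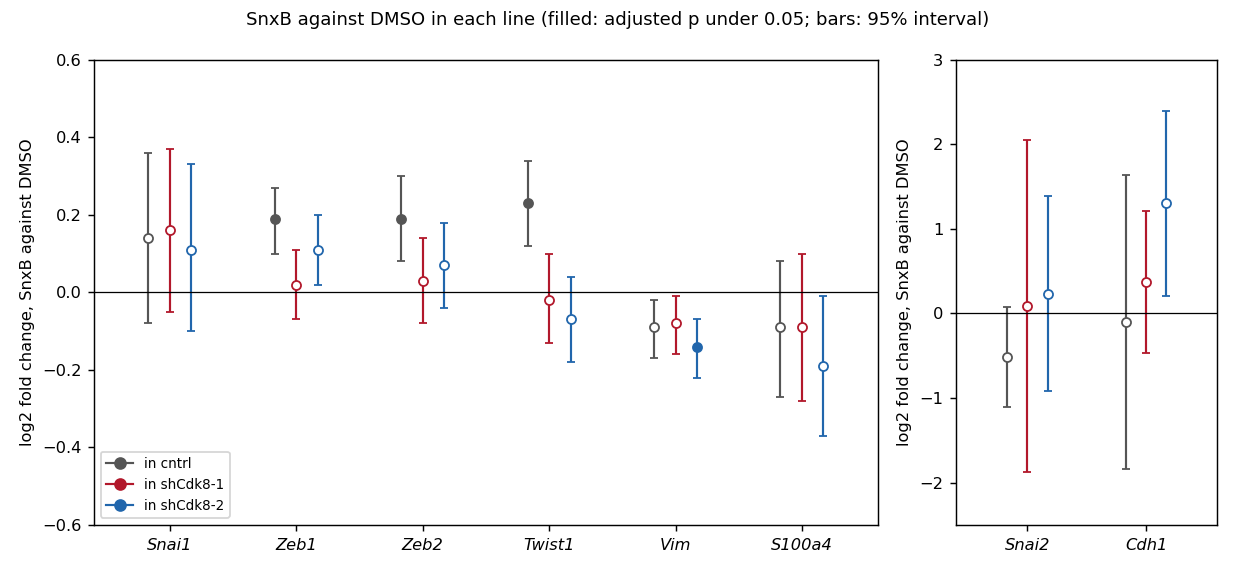
Log2 fold change of SnxB against DMSO for each tested gene in cntrl, shCdk8-1 and shCdk8-2 cells, with 95% intervals and filled points where the adjusted p was under 0.05. Zeb1, Zeb2 and Twist1 are filled in cntrl cells, at 0.19 to 0.23, and Vim is filled in shCdk8-2 cells, at -0.14, with the intervals of Snai2 and Cdh1 many times wider.

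Set side by side in DMSO, the 2 hairpin lines differed at 3 of the 8 genes, with Twist1 and S100a4 higher and Zeb2 lower in shCdk8-2 cells, against 11.2% of all genes higher and 9.91% lower. Cdh1 had a difference of -1.38 (95% interval -2.45 to -0.31, edgeR, adjusted p = 0.062), which passed without shCdk8-2 replicate 3 (-2.42, adjusted p = 0.00799) and without the filter (-1.38, adjusted p = 0.0293), and Epcam held 17 counts in shCdk8-1 against 2 in shCdk8-2 cells. The comparisons against cntrl were repeated in SnxB with libraries not used in DMSO, but from the same sorted populations. In SnxB 8 of 8 genes passed with shCdk8-1, 2 higher and 6 lower, against 30.5% and 30.1% of all genes. With shCdk8-2, 7 of 8 passed, 1 higher (Cdh1) and 6 lower, against 28.1% and 28.6% of all genes. Snai2 and Cdh1 are in these counts too, having passed the filter through the groups in which they were high. The counts in SnxB are therefore descriptions as well. In the SnxB libraries Twist1, Vim and Cdh1, which had not passed with shCdk8-2 in DMSO, passed, and Snai1, which had, did not. As the interactions did not pass, the difference between the agents was not shown for any of them.

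The wider EMT gene lists gave a mixed picture in DMSO. Their counts stand beside 30.1% of all genes higher and 29.5% lower in shCdk8-1 cells and 29.0% higher and 28.1% lower in shCdk8-2 cells, and their medians beside 0.01 for all genes in both. Genes scarce in 1 line, among them Krt8, Cd24a, S100b, Grhl2 and Cdh5, passed the filter on low counts through the groups in which they were high, which made a difference likely, so the counts and medians of their lists are descriptions. Of 7 other EMT transcription factors tested out of 12, 4 rose and 3 fell in shCdk8-1 cells and 3 rose and 3 fell in shCdk8-2 cells, with list medians of 0.14 and -0.07. Klf8, a Krüppel-like repressor of Cdh1, fell from 25.3 CPM in cntrl to 0.61 CPM in shCdk8-1 and 3.33 CPM in shCdk8-2 cells (log2 fold changes -5.34 and -2.92, edgeR, adjusted p = 8.31e-18 and 1.27e-15), as Snai2 did. Prrx1, a homeobox factor of mesenchyme, fell by 0.37 and 0.41. Sox9 rose by 0.95 and 0.26, and Tcf3, which encodes the E2A proteins, rose by 0.60 and 0.35. Twist2, the close relative of Twist1, fell by 0.32 and 0.24, and it rose by 0.34 with SnxB in cntrl cells (edgeR, adjusted p = 0.000138), where 4 of the 7 factors rose and none fell, against 3.41% and 2.14% of all genes.

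Of 11 factors that keep the epithelial state, 4 were tested. In shCdk8-1 cells 2 rose and 2 fell (all genes: 30.1% and 29.5%), and in shCdk8-2 cells 1 rose (29.0%). Elf3, an ETS factor of epithelia, rose from 1.03 CPM to 3.62 and 3.37 CPM (log2 fold changes 1.80 and 1.69). Klf4 rose by 0.54 in shCdk8-1 cells and had -0.09 in shCdk8-2 cells. Grhl2 and Ovol1, both known to oppose Zeb1, fell in shCdk8-1 cells by 1.98 and 0.77 (edgeR, adjusted p = 0.0236 and 0.0367) at levels under 1 CPM, with 0 counts of Grhl2 in 2 of the 3 libraries, and had -0.43 and 0.43 in shCdk8-2 cells without passing. With DESeq2, 1 factor of this list fell in shCdk8-1 cells in place of 2.

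Among cadherins and catenins, 4 of 7 tested genes rose and 2 fell in shCdk8-1 cells, and 2 rose and 2 fell in shCdk8-2 cells, where 29.0% of all genes were higher and 28.1% lower, about the same share. Jup, which encodes plakoglobin, a linker of cadherins and desmosomes to the cytoskeleton, rose from 7.86 to 69.7 and 53.9 CPM (log2 fold changes 3.15 and 2.78, edgeR, adjusted p = 3.87e-16 and 6.16e-15). Ctnnb1, which encodes β-catenin, rose by 0.89 and 0.25. Cdh5, the cadherin of endothelium, fell from 4.34 CPM to 0.21 and 0.60 CPM, and Cdh13 fell by 0.65 and 0.60. Pecam1, another endothelial gene, was at 0.29, 14.3 and 5.85 CPM in the 3 lines, so the endothelial markers did not move together.

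Of 16 other epithelial markers 4 were abundant enough to test, with 2 higher and 1 lower in shCdk8-1 cells and 2 higher and 2 lower in shCdk8-2 cells. The 2 higher genes, Krt8 and Cd24a, were in the test only through the hairpin lines, which made a difference likely. Cd24a entered it only through shCdk8-1 cells in SnxB, with 10 to 15 reads per library. Krt8, a keratin of simple and luminal epithelium, had 1, 1 and 1 reads in cntrl cells, 153, 137 and 146 in shCdk8-1 cells and 279, 261 and 249 in shCdk8-2 cells, a ratio of 138 (exact 95% counting interval 46.8 to 670) and 238 (81.2 to 1160). Its usual partner Krt18 stayed at or below 0.06 CPM on average in all groups. Cd24a, a surface protein of luminal cells, had no reads in cntrl libraries and was at least 2.12-fold and 1.38-fold higher in the hairpin lines, taking 3 counts per library as the limit. Ocln, which encodes the tight junction protein occludin, fell by 1.23 and 0.80, and St14, which encodes matriptase, fell by 0.78 in shCdk8-2 cells and had -0.37 in shCdk8-1 cells without passing.

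Of the 14 other mesenchymal markers tested out of 19, 1 rose and 9 fell in shCdk8-1 cells and 3 rose and 6 fell in shCdk8-2 cells, with list medians of -0.25 and -0.15, against 29.5% and 28.1% of all genes lower and medians of 0.01. The gelatinases went apart. Mmp2 rose by 1.76 and 1.72, from 13.1 to 44.5 and 43.3 CPM, and Mmp9 fell by 3.13 and 1.23, from 9.98 to 1.14 and 4.25 CPM. The matrix protein tenascin C (Tnc) fell by 2.60 and 1.24, and the receptor kinase Axl, at 480 CPM in cntrl cells, had -0.08 in shCdk8-1 cells without passing and rose by 0.12 in shCdk8-2 cells. Acta2, the smooth muscle actin of myofibroblasts, was named after its values were seen. In DMSO it fell by 0.59 in shCdk8-1 cells and rose by 0.55 in shCdk8-2 cells (edgeR, adjusted p = 1.32e-09 and 2.77e-09). It rose with SnxB in cntrl cells by 1.56, from 142 to 419 CPM (edgeR, adjusted p = 1.51e-14), by 1.25 in shCdk8-1 cells and by 1.01 in shCdk8-2 cells. Of 8 other S100 genes tested out of 12, 1 rose and 6 fell in shCdk8-1 cells and 5 fell in shCdk8-2 cells, with list medians of -0.45 and -0.23, against 29.5% and 28.1% of all genes lower. With DESeq2, 1 S100 gene was higher in shCdk8-2 cells in place of none. S100a8, a subunit of calprotectin, fell from 9.11 to 0.43 and 0.85 CPM, S100a13 fell by 1.19 and 0.84, and S100a3 had 0.14 and 0.23 without passing. S100b was at 0 counts in cntrl cells and 11 and 6 counts in the hairpin lines, at least 1.12-fold higher in shCdk8-1 cells. It entered the test only through shCdk8-1 cells in SnxB, with 12 to 20 reads per library, and its call as the 1 S100 gene that rose carries that limit.

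**Figure D5:**
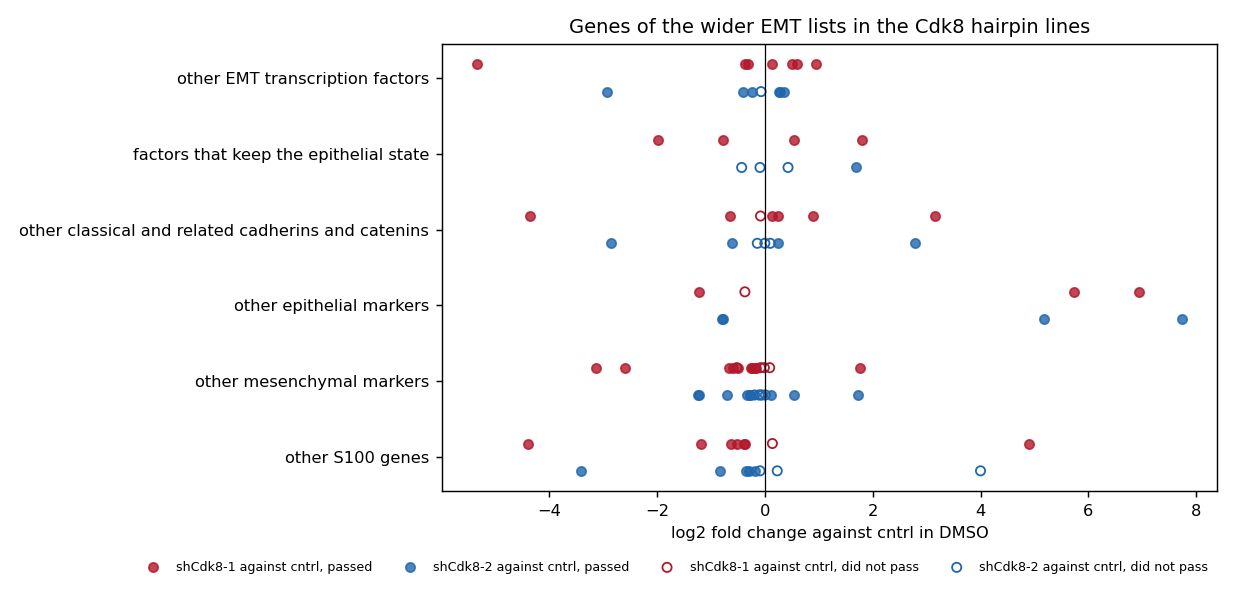
Log2 fold change against cntrl in DMSO of each tested gene of 6 lists around the EMT genes, with 1 point per gene, red for shCdk8-1, blue for shCdk8-2, filled where the adjusted p was under 0.05 and open where it was not. Most S100 genes and mesenchymal markers lie left of 0, while Krt8 and Cd24a lie far to the right.

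Genes with a pattern like that of each member over the 18 libraries were ranked by Pearson's r of log2 CPM among 11180 or 11181 other genes, as a description, since the libraries form 6 groups that set most of the pattern. Zeb1 was closest to Flrt2 (r = 0.991) and Col4a2 (0.988), Zeb2 to Rhou (0.983) and Wwtr1 (0.980), and S100a4 to Cmtm3 (0.984) and Arhgdib (0.983). Snai2 was closest to AW554918 and Dpy19l3 (both 0.961), Twist1 to Tagln2 (0.955) and Dhrs1 (0.951), and Vim to Usp4 (0.944). The likeness was lower for Snai1, with Taf4b (0.888) and Wdr3 (0.880), and for Cdh1, with Mif (0.889) and Snrpd3 (0.879). Between the members themselves r was 0.90 for Zeb1 and Zeb2, 0.89 for Snai2 and Zeb1 and 0.52 for Zeb2 and Twist1. Snai1 and Snai2 ran against each other (r = -0.73), and Cdh1 had a positive r with Snai1 (0.60) and a negative r with the other 6 genes tested, between -0.57 with Zeb2 and -0.77 with Vim.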

How the data were processed

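Per the labels and the study's methods, RNA from 18 E0771 samples was sequenced as 50 bp single-end reads, which the authors trimmed with Trimmomatic, mapped with STAR to GRCm38 (GENCODE M13) and counted on the union of exons per gene with featureCounts 1.5.1, reverse-stranded per the file headers, leaving out reads that map to several places or overlap several genes. The deposited values are raw read counts per gene, 1 file per library, with 16452260 to 22664693 reads counted. Gene symbols were taken from GENCODE for 50462 of 50686 identifiers.

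Counts were tested with edgeR 4.0.16 (R 4.3.3; limma 3.58.1) by the quasi-likelihood test in 1 fit of 6 groups with TMM scaling, on genes kept by filterByExpr (count minimum 10, total minimum 15). Passed means an adjusted p (Benjamini-Hochberg over 12772 genes) under 0.05. In all, 10 comparisons were made, including 2 interactions. Intervals are 95%, and counting intervals and limits (3 counts) cover counting error only. Tested on simulated data, the fit recovered 65 of 67 genes changed 1.5-fold for shCdk8-1 against cntrl and 59 of 67 for the interaction with shCdk8-1, each among 12506 genes. It also called 8 and 5 unchanged genes. The changed genes were drawn from the more abundant genes, so the run does not cover levels like those of Snai2 and Cdh1. They were also few, unlike the 30.1% of genes higher and 29.5% lower in shCdk8-1 cells in DMSO. The run therefore does not cover scaling where so many genes differ.

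Named were the 10 genes, Cdk8 and Cdk19, from each list the 2 tested genes with the largest and the 2 with the smallest mean log2 fold change over both hairpins in DMSO, and the 2 genes most correlated with each member among genes of at least 1 CPM on average (prior count 2), of which 1 is not reported here. Twist2, Acta2, Krt18, Pecam1, Pdgfra and Col1a1 were named after their values were seen. The members and lists were chosen with earlier results of these data known. Same-numbered libraries were taken as paired only where the deviations of all 3 pairs of a comparison correlated above 0.1, which none did (-0.160 to 0.247, all 3 positive in 2 of 8 comparisons), so the fit has no replicate block. File headers number the shCdk8-2 libraries labelled 1, 2 and 3 as 2, 3 and 3 with either agent. Pairing and the replicate block followed the labels, so between shCdk8-2 and another line they may join libraries that do not belong together. Whether the shCdk8-2 libraries labelled 2 and 3 share a culture is not known. If they do, n = 3 and the SDs, SEs and p-values of shCdk8-2 count 1 culture as 2 libraries. An alternative that sums these libraries was therefore added, after seeing the data. Alternatives were the test of DESeq2 1.42.0, scaling in edgeR by the size factors of DESeq2 or by total reads, keeping every gene with a read, keeping genes above 1 CPM in at least 3 libraries, fitting only the groups compared, the replicate block and each library left out.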

Additional observations from a re-analysis of the deposited data

How the results depend on the processing

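Of the counts of genes that passed, those of shCdk8-1 and shCdk8-2 against cntrl, in either agent, of SnxB in shCdk8-1 cells and of both interactions stayed within 1.5 times under all alternatives. The count of 1 for SnxB in shCdk8-2 cells became 0 with DESeq2's size factors, with the replicate block and with the summed libraries, 2 without the filter, and 0 to 0 on leaving out 1 library. The replicate block moved no other count by over 1.5 times. With the summed libraries, Zeb2 no longer passed for SnxB in cntrl cells (0.20, edgeR, adjusted p = 0.0522). Snai1 passed there for shCdk8-2 against cntrl in SnxB (0.23, edgeR, adjusted p = 0.0426). The count of 3 for SnxB in cntrl cells was 1 to 3 on leaving out 1 library, and that of 3 between the hairpin lines was 1 to 3, and 5 without the filter. Sign changes were confined to log2 fold changes that had not passed. For shCdk8-2 against cntrl in DMSO, Twist1 went from -0.03 to 0.00 with library totals and Cdh1 from 0.74 to between -0.29 and 1.45 without 1 library. For SnxB against DMSO the ranges without 1 library were -0.9 to 0.6 for Cdh1 in cntrl cells, -0.21 to 0.02 for S100a4, -0.56 to 0.82 for Snai2, -0.05 to 0.05 for Twist1, -0.01 to 0.06 for Zeb1 and -0.02 to 0.09 for Zeb2 in shCdk8-1 cells, and -0.28 to 0.68 for Snai2 in shCdk8-2 cells. For the interaction with shCdk8-1 they were -0.23 to 1.27 for Cdh1, -0.12 to 0.12 for S100a4, -0.07 to 0.08 for Snai1, -0.05 to 1.33 for Snai2 and -0.03 to 0.05 for Vim, and without the filter S100a4 was at -0.02, Snai1 at -0.01 and Vim at -0.02, while S100a4 was at 0.00 with DESeq2's size factors and with the replicate block. For Snai1 and shCdk8-2 the range was -0.09 to 0.12. The cause was not tested. With at most 38 reads per library for Snai2, 17 for Cdh1 and 8 for Epcam, depth limits what could be seen of these genes.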
